A study of Mus musculus with 26 samples.

Results

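Microglia are the resident macrophages of the brain. They arise from yolk sac progenitors, enter the embryonic brain, multiply there, and after birth take on a surveying state that depends on TGF-beta signalling and on transcription factors such as SALL1. In that homeostatic state they carry purinergic receptors such as P2RY12, with which their processes sense nucleotides, and the membrane protein TMEM119. Before birth they clear dying cells, associate with growing axon tracts and refine wiring, and many of them divide. The comparison described here asks how the RNA of cortical microglia at postnatal day 14 (P14) differed from that in the embryo at E15.5 when the dam had been given saline only.

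The members are the cells of 7 libraries of sorted microglia. Of 109847 barcodes in the 26 libraries of the series that had at least 500 genes and at most 20% of UMIs on mitochondrial genes, 31995 belonged to these libraries and also had at least 3 UMIs of Csf1r, C1qa, C1qb and Cx3cr1 together. The same rule kept 65126 cells over all 18 libraries of sorted microglia. A UMI is a molecular barcode that counts 1 captured RNA molecule. The 3 libraries of E15.5 held 5559, 2935 and 4477 cells, and the 4 libraries of P14 held 5774 (replicate 1), 3741 (replicate 2), 4663 (replicate 3F) and 4846 (replicate 3M). All mice were wild-type C57Bl/6N, and every dam had received an intraperitoneal injection of saline at E12.5, the time at which Poly(I:C) was given in the arm of maternal immune activation (MIA). Microglia were dissociated mechanically from the somatosensory cortex (the prospective one in embryos) and sorted on CD11b, CX3CR1 and CD45. Each embryonic library pooled embryos of both sexes. By the study's list of samples, P14 replicates 1 and 2 each pooled a male and a female pup and 3F and 3M came from a single female and a single male, while a figure legend of the study counts as many P14 mice as libraries, which would be a single pup for each. Nothing in the labels says that each library came from a litter of its own, so the p-values below measure the spread between these libraries, part of which may be technical. Stage, and everything that was done on different days for the 2 stages, cannot be told apart. Because UMIs were summed over the cells of a library, a gene carried by fewer cells and a gene with less RNA per cell cannot be told apart in those sums either.

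The cells of a library held between 22043359 and 77035470 UMIs, with a median per cell of 8728 to 12161 at E15.5 and 3690.5 to 6840 at P14. Of the barcodes past the filters on genes and mitochondrial UMIs, 93.4% to 96.1% passed the filter on the 4 microglial genes at E15.5 and 98.2% to 99.2% at P14. At the edge of that filter, 215 barcodes with 2 UMIs of the 4 genes were left out and 158 with 3 were kept at E15.5, against 57 and 28 at P14. Some cell barcodes were listed by more than 1 library of sorted microglia. Embryonic replicate 3 shared 152 cell barcodes with P14 replicate 3F and 156 with 3M, and 3F and 3M shared 229, and between 1.66% and 6.58% of a library's cells had a barcode found in another sorted library. Libraries of E13.5, not compared here, shared barcodes as well. E13.5 MIA replicate 2 shared 246 cells with 3F, 229 with 3M and 152 with E15.5 replicate 3. E13.5 MIA replicate 1 shared 107 with P14 replicate 1. In the pair of E15.5 replicate 3 and P14 replicate 3F, the UMIs of a shared barcode stood in a nearly constant ratio (median 0.482, quartiles 0.469 and 0.491). For genes whose printed change moved by over 1.5 times when these cells were left out, the log2 change without them is given as well. Xist, transcribed from the inactive X chromosome, and the Y-linked gene Ddx3y fitted the labels of 3F (1240 and 1.47 CPM) and 3M (41.1 and 83.8 CPM). Markers of the cell type on the labels were high at both stages, in cells that the filter had chosen by 4 microglial genes. The 34 genes of the homeostatic microglia list summed to between 28530 and 37770 counts per 1000000 UMIs at E15.5 and between 95340 and 118000 at P14. Cst3, described below, made up a large part of these sums.

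Levels are given as counts per 1000000 UMIs (CPM) of a library after TMM scaling, and differences as the log2 change of P14 minus E15.5 from edgeR's quasi-likelihood test. A gene is called where its Benjamini-Hochberg adjusted p over all genes tested is under 0.05. The stages differed widely. Of 13517 genes tested, 6421 (47.5%) were called, 3058 of them higher at P14 (22.6%) and 3363 lower (24.9%), so that a list with about that share of called genes does not stand apart from the rest. More than 2-fold changes were found in 1107 genes that rose and 1855 that fell, and more than 8-fold changes in 196 and 341. The ranges of the 4 P14 and the 3 E15.5 libraries did not overlap in 7222 genes (53.4%). Of the 6421 called genes only 233 had ranges that overlapped, so stages that lie apart add little to a call. The split into higher and lower rests on the scaling. TMM sets the bulk of genes at a log2 change near 0 (median 0.01 over all genes tested), and with library totals alone this median moved to 0.26 and the calls to 4858 higher and 2415 lower. Changes below are relative to the bulk of genes, and lists whose direction turned under library totals are named as such. Without the shared barcodes 6590 genes were called, and 6334 of the 6369 calls that could be tested again were called in the same direction. Alternatives that left out cells by UMIs of S phase or mitosis genes used cells thinned to 2000 UMIs, without shallower cells. They differ from the main fit in depth as well, and thinning alone gave 5185 calls among 11704 genes tested. Leaving out cells with 2 or more such UMIs kept 17.11%, 41.89% and 43.87% of thinned E15.5 cells and 47.27% to 52.71% at P14.

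**Figure D1:**
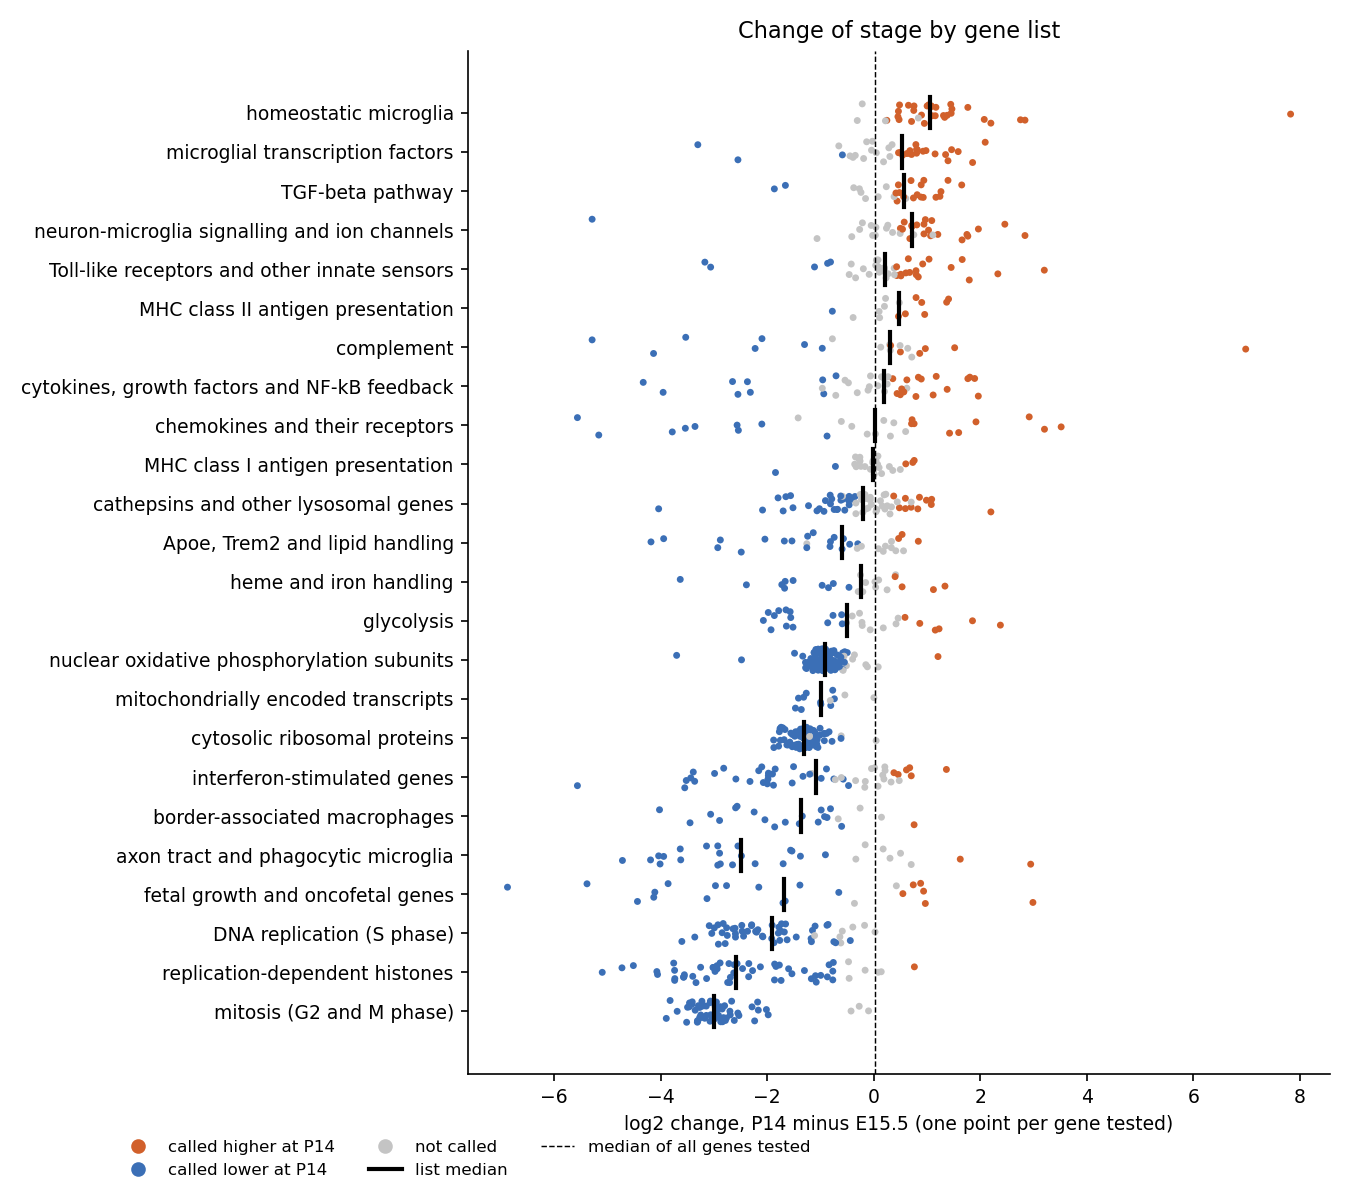
Log2 change of P14 minus E15.5 for every tested gene of 24 lists, with 1 point per gene. Orange points were called higher at P14, blue points lower and grey points were not called, the thick bar is the median of the list and the dashed line the median of all genes tested (0.01). The homeostatic list lies to the right (median 1.05) and the lists of mitosis, replication-dependent histones and S phase to the left (medians -2.99, -2.59 and -1.92).

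The 4 genes that chose the cells are described first, without a test. Counts of lists below that hold any of them include their calls, which carry no weight since these genes chose the cells. No count or median without them was made. Csf1r, the receptor through which CSF1 and IL-34 keep microglia alive, stood at 1579, 2410 and 2383 CPM in the E15.5 libraries and between 3150 and 3587 CPM at P14. Cx3cr1, the receptor for the neuronal chemokine fractalkine, stood at 1711, 2858 and 2855 CPM and then between 3510 and 4811 CPM. The complement subunit genes C1qa (5064 to 6628 and then 7926 to 9377 CPM) and C1qb (6792 to 7628 and then 7135 to 9372 CPM) were high at both stages, and of the 4 genes C1qb was the one whose libraries overlapped between stages.

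Homeostatic microglial genes were mostly higher at P14. Of the 34 genes of that list, 30 rose and 0 fell, with a median log2 change of 1.05 beside 0.01 over all genes tested. P2ry12 was at 1670, 2031 and 2304 CPM at E15.5 and at 5710, 5690, 5372 and 5348 CPM at P14, a 2.76-fold rise (log2 change 1.47, SE 0.12, adjusted p = 5.98e-05). Tmem119 was at 346, 365 and 457 CPM and then at 1424, 1300, 1265 and 1304 CPM, a 3.40-fold rise (adjusted p = 3.39e-05). In both genes each P14 library lay above each embryonic one and the P14 libraries lay close together. Cst3, which encodes the secreted protease inhibitor cystatin C, rose 4.59-fold from a mean of 10354 ± 1742 CPM (SD, n = 3) to 47490 ± 10645 CPM (n = 4). Its P14 libraries fell into a higher pair, replicates 1 and 2 with 60295 and 52200 CPM, and a lower pair, 3F and 3M with 39153 and 38311 CPM.

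Further members of the list rose more steeply. Selplg, the gene of P-selectin glycoprotein ligand 1, went from 327, 359 and 356 CPM to between 2137 and 2702 CPM (6.74-fold, adjusted p = 4.17e-06). Adgrg1, an adhesion receptor known to bind extracellular matrix proteins, went from 26.8, 52.0 and 58.5 CPM to between 301 and 355 CPM (7.15-fold). Upk1b, a tetraspanin gene best known from bladder epithelium, was near 0 in the embryo (0.177, 0.0635 and 0.129 CPM) and at 37.1, 32.4, 27.7 and 28.2 CPM at P14. The groups of these 3 genes were far apart. Sparc, a secreted matrix protein gene, had a log2 change of 1.33, and Gpr34, a receptor for lysophosphatidylserine, of 1.31. Tyrobp, the signalling adaptor of TREM2, had 3628, 3904 and 4020 CPM against 2725 to 3716 CPM (log2 change -0.31, adjusted p = 0.0694), and Trem2 itself had 1225 to 1610 CPM against 1555 to 1901 CPM (0.22, adjusted p = 0.195). Neither was called by edgeR in all 7 libraries. Tyrobp was called lower there by DESeq2 (-0.32, adjusted p = 0.0486), and by edgeR without P14 replicate 1 (0.0256), when cells with 2 or more S phase or mitosis UMIs were left out (-0.52, 0.00551) and when cells with a mitotic UMI were left out (-0.43, 0.0165), and Trem2 was called higher with library totals (0.0186).

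**Figure D2:**
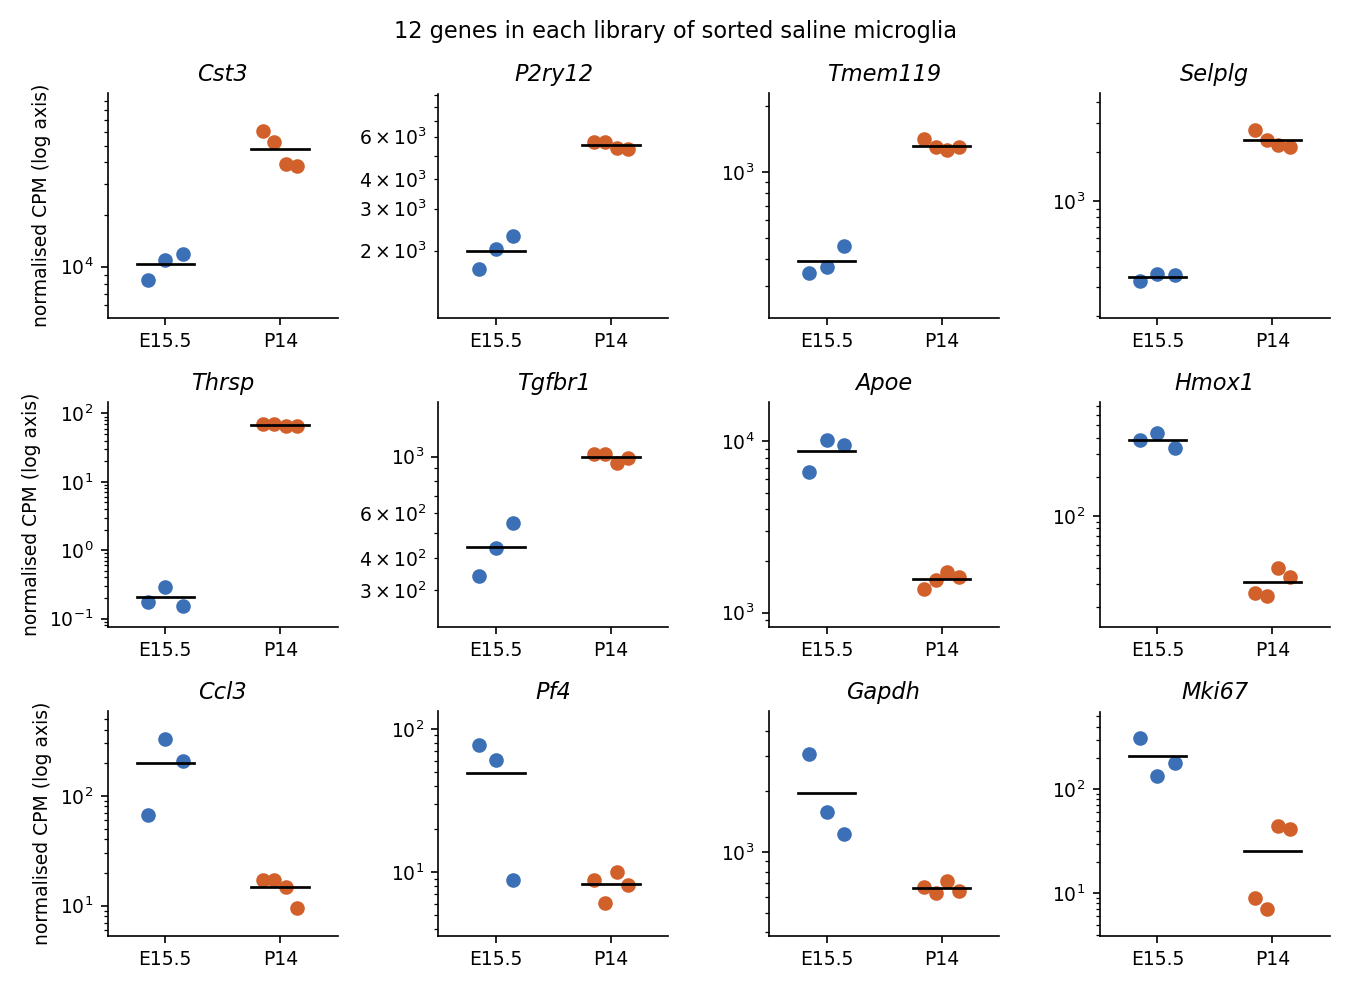
Normalised CPM on log axes of 12 genes in each of the 3 E15.5 (blue) and 4 P14 (orange) libraries, with black bars at the group means. The groups are apart in every panel except Pf4, in which the E15.5 library at 8.90 CPM lies among the P14 libraries.

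The share of cells with marker UMIs was compared after thinning each cell to 2000 UMIs, since embryonic cells held more UMIs. Cells with fewer UMIs were left out of these shares, 211 to 784 cells of each E15.5 library and 186 to 481 of each P14 library. A UMI of Tmem119 was found in 44.06%, 42.91% and 53.36% of cells in the E15.5 libraries and in 92.31%, 91.53%, 89.80% and 90.36% at P14 (exact permutation test over libraries, two-sided, p = 0.0286, the smallest that 4 against 3 libraries allow; Benjamini-Hochberg adjusted over 9 shares 0.0322). Those 9 hold the marker shares and the share of cells with under 2 UMIs of the S phase and mitosis lists. P2ry12 was found in 86.09% to 94.09% and in 98.42% to 99.64% of cells (exact permutation test, p = 0.0286). Most embryonic cells thus had a P2ry12 UMI, and fewer had one of Tmem119 at this depth. Of the barcodes without any UMI of the 4 microglial genes, 0 of 107 at E15.5 and 0 of 28 at P14 had a Tmem119 UMI, while 11.21% and 14.29% had one of P2ry12. Without thinning, Tmem119 was in 79.45% (mean over libraries) of embryonic and 95.98% of P14 cells. All exact tests of marker shares here and below count 3F and 3M, labelled as replicate 3, as separate libraries. With the 2 summed, the smallest p an exact permutation test allows is 0.1, and marker shares were not tested that way.

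Transcription factors of microglia moved mostly upward, and 20 of 36 tested rose and 3 fell (median 0.52). Sall1, a zinc finger gene needed for microglial identity, went from 123, 188 and 239 CPM to between 337 and 360 CPM (1.90-fold, adjusted p = 0.00555). The P14 libraries of Sall1 differed from each other far less than the embryonic ones. Hes1, a Notch target, rose by 2.09 on the log2 scale (from 3.66 to 15.6 CPM on average), and further rises were those of Ets1 (1.58), Klf4 (1.46) and Smad3 (1.39). Mef2a (1.35), Zfhx3 (1.15) and Mef2c (0.62) rose as well. Spi1, which encodes PU.1, the master regulator of the macrophage lineage, was not called (551 ± 69.4 and 482 ± 19.7 CPM, log2 change -0.19, adjusted p = 0.192; 0.05 with library totals). Irf8 was not called by edgeR either (0.30, adjusted p = 0.0629), although each P14 library (379 to 388 CPM) lay above each embryonic one (266 to 353 CPM), and it was called by DESeq2 (0.29, adjusted p = 0.0402). It was also called by edgeR with thinned cells (0.0338), without the filter on microglial genes (0.0277), without E15.5 replicate 3 (0.41, adjusted p = 0.0215) and with library totals (0.54, 0.00845). Klf2, a Krueppel-like factor known from quiescent endothelium and from myeloid cells, went the other way, from 114, 77.5 and 67.7 CPM to 5.60, 6.52, 12.7 and 10.1 CPM (9.87-fold lower, adjusted p = 9.06e-05). The others that fell were Tfec (-2.55) and Mitf (-0.59), and Mitf was not called without E15.5 replicate 2 (-0.49, adjusted p = 0.0653) or P14 replicate 1 (-0.54, 0.0609).

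TGF-beta signalling genes rose together with them, with 17 of 27 tested members higher and 2 lower (median 0.56). Among the receptors, Tgfbr1 went from 341, 436 and 550 CPM to between 939 and 1027 CPM (2.24-fold, adjusted p = 0.000659), and Tgfbr2 had a log2 change of 0.89. The co-receptor gene Eng rose 3.14-fold, from 18.9, 21.5 and 23.5 CPM to between 64.1 and 70.7 CPM. The ligand gene Tgfb1 changed less (0.44; 0.295 and not called, adjusted p = 0.0809, when cells with 2 or more S phase or mitosis UMIs were left out). Of the signal transducers, Smad3 rose 2.63-fold and Smad1 by 1.24 on the log2 scale, and the inhibitory Smad7 by 0.94. Bambi, a pseudoreceptor that dampens the pathway, fell from 5.71, 3.65 and 1.45 CPM to between 0.824 and 1.11 CPM (adjusted p = 0.00616), and Tgfb2, at under 1 CPM at both stages, was the other member that fell. For Tgfbr1 and Eng each P14 library was above each embryonic one, and for Bambi below.

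Ranked by size among called genes with a mean of at least 50 CPM in their higher stage, the 10 largest rises were those of Thrsp, Csmd3, Lrba, Pmp22, Gm6277, A830008E24Rik, Nav2, Khdrbs3, Klhdc8b and Tspan7. Thrsp, thyroid hormone responsive, is a regulator of lipogenesis known from liver and fat. It stood at 0.177, 0.286 and 0.155 CPM in the embryo and at 70.8, 69.7, 66.4 and 66.2 CPM at P14, a 340-fold difference (log2 change 8.41, SE 0.19, adjusted p = 7.45e-08). Csmd3, a large transmembrane gene with CUB and sushi domains like those of complement regulators, went from 0.339, 1.02 and 0.543 CPM to between 61.8 and 93.7 CPM (126-fold). Both genes were close to absent from embryonic libraries and present in every P14 library at a like level. Lrba, which encodes a vesicle trafficking protein needed for CTLA4 recycling in T cells, rose 18.2-fold to 157 to 175 CPM. Pmp22, known for its role in peripheral myelin, rose 15.6-fold, from 10.7, 21.3 and 14.8 CPM to between 223 and 281 CPM. Nav2, a neuron navigator gene, rose 10.8-fold and the tetraspanin gene Tspan7 8.76-fold. The rises of Gm6277 and A830008E24Rik, annotated without a protein name, were 15.0-fold and 11.6-fold.

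Dividing cells were counted as cells with at least 2 UMIs of 8 genes of mitosis (Mki67, Top2a, Cdk1, Ccna2, Ccnb1, Birc5, Ube2c and Cenpf) after thinning to 2000 UMIs. Their share was 35.73%, 10.10% and 10.12% in the E15.5 libraries and 0.567%, 0.309%, 2.75% and 2.73% at P14 replicates 1, 2, 3F and 3M (18.65 ± 14.8% against 1.59 ± 1.33%, exact permutation test, two-sided, p = 0.0286). Each P14 library lay below each embryonic one. E15.5 replicate 1 stood apart from the other embryonic libraries, and without it the difference of the means was -8.52 percentage points in place of -17.06 (exact p = 0.0667, the smallest that 4 against 2 libraries allow). P14 replicates 3F and 3M stood apart from the other P14 libraries, and the shared barcodes moved with that. A shared barcode here is one found in any other sorted library, those of E13.5 included. Among cells with a shared barcode, 99 of 251 in 3F and 98 of 267 in 3M were dividing, against 69 of 194 in E15.5 replicate 3, 2 of 102 in P14 replicate 1 and 0 of 52 in P14 replicate 2. With the shared barcodes left out, the P14 libraries stood at 0.539%, 0.314%, 0.510% and 0.660%, and the embryonic ones at 35.75%, 9.96% and 8.91%.

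**Figure D3:**
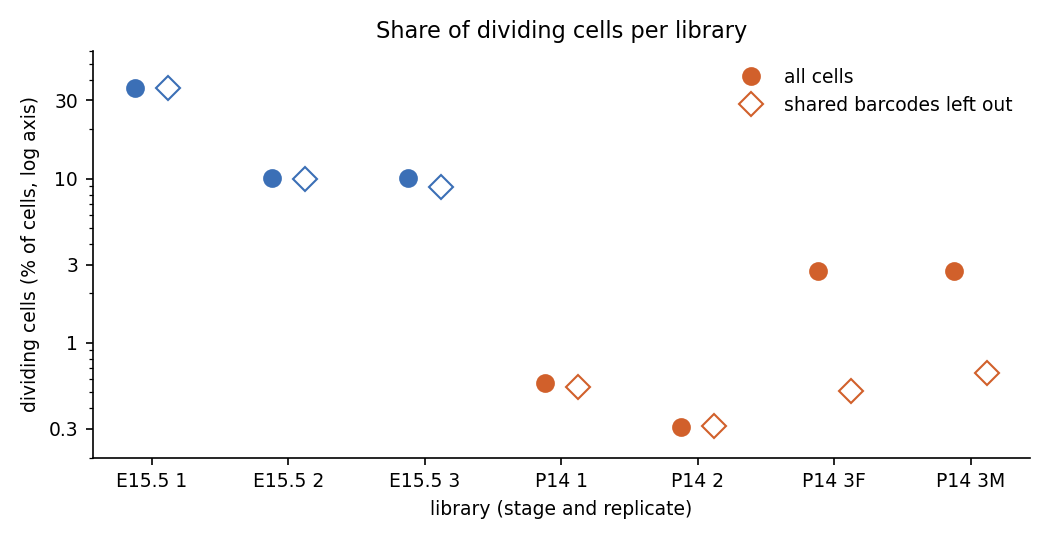
Share of cells with at least 2 UMIs of 8 mitotic genes, in percent on a log axis, for each of the 7 libraries, with all cells (filled circles) and with shared barcodes left out (open diamonds). The 4 P14 libraries lie below the 3 E15.5 libraries, and replicates 3F and 3M move from 2.75% and 2.73% to 0.510% and 0.660% when shared barcodes are left out.

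Genes of mitosis were lower at P14, and those that counted the dividing cells, Ube2c, Birc5, Mki67 and Top2a among them, are not independent of that share. Of the 61 on the list, 58 fell and 0 rose (median -2.99, or -3.86 without shared barcodes and -2.36 without E15.5 replicate 1). Ube2c, which encodes the ubiquitin-conjugating enzyme of the anaphase-promoting complex, stood at 463, 85.1 and 99.8 CPM in the embryo and at 7.24, 5.68, 22.5 and 22.4 CPM at P14 (14.9-fold lower, adjusted p = 0.00269; log2 change -3.90, -5.04 without shared barcodes). Ccnb2, a cyclin of the G2-to-M transition, stood at 147, 28.1 and 31.4 CPM and then between 2.15 and 7.20 CPM (14.2-fold lower, adjusted p = 0.00207; log2 change -3.82, -4.62 without shared barcodes). Birc5, which encodes survivin of the chromosomal passenger complex, fell 12.9-fold (-3.69, -5.03 without shared barcodes). In these genes the first embryonic library had several times the level of the others. Mki67, the gene of the proliferation antigen Ki-67, went from 308, 133 and 180 CPM to 9.02, 7.10, 44.1 and 41.3 CPM (8.13-fold lower, adjusted p = 0.00507; log2 change -3.02, -4.34 without shared barcodes). Top2a, which encodes the topoisomerase that untangles sister chromatids, was 7.37-fold lower (-2.88, -3.92 without shared barcodes).

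The apparatus of DNA replication was lower as well, with 48 of 55 genes called lower and 0 higher (median -1.92, or -2.18 without shared barcodes). Rrm2, a subunit of ribonucleotide reductase, fell from between 18.5 and 84.9 CPM to 1.38, 0.874, 7.02 and 4.70 CPM (12.1-fold, adjusted p = 0.00416; log2 change -3.60, -4.84 without shared barcodes). Cdc6, which loads the replicative helicase, fell from 9.98, 3.84 and 3.60 CPM to 0.133, 0.182, 1.20 and 0.702 CPM (adjusted p = 0.0034; log2 change -3.36, -4.57 without shared barcodes). Mcm3, a subunit of that helicase, had a log2 change of -1.15 and Pcna, the sliding clamp of replication and repair, of -1.10. Neither was called when cells with 2 or more S phase or mitosis UMIs were left out (-0.06 and -0.45, adjusted p of 0.866 and 0.226), a filter that counts the UMIs of both genes themselves. Of 58 replication-dependent histone genes, 52 fell and 1 rose (median -2.59). Hist1h1b, a linker histone gene, went from 315 to 33.1 CPM on average, and Hist1h2ae, a gene of histone H2A, from 174 to 14.6 CPM (log2 changes -3.25 and -3.57, or -4.50 and -4.18 without shared barcodes). Hist2h3c1 was the member that rose (0.76, adjusted p = 0.0341), and it was not called when any of 4 libraries was left out (E15.5 replicates 1 and 2, P14 replicates 1 and 2; adjusted p of 0.0574 to 0.116).

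Regulators upstream of the cycle were divided between directions, with 11 of 32 cyclins and cell cycle inhibitors higher and 12 lower (median -0.11, or 0.15 with library totals, which called 14 higher and 9 lower). The median was also above 0 without E15.5 replicate 1 (0.052), with the replicate block (0.009), with thinned cells (0.013) and when cells with 2 or more S phase or mitosis UMIs were left out (0.376, with 11 of 27 higher and 5 lower). Cdk4, the G1 kinase gene, fell from 311, 186 and 147 CPM to between 64.8 and 86.1 CPM (2.82-fold lower, adjusted p = 0.00123), Myc by 1.62 and Ccnd2 by 2.51 on the log2 scale. Cdkn2b, which encodes the CDK4 inhibitor p15, was at 0.192, 0.0952 and 0.129 CPM in the embryo and at 1.24, 1.24, 1.64 and 1.19 CPM at P14 (8.95-fold, adjusted p = 0.000284). Other genes that restrain the cycle rose less, such as Btg2 (1.18) and the CDK inhibitor gene Cdkn1b (0.57, from 47.7 to 69.3 CPM at E15.5 to 73.7 to 92.3 CPM at P14). Cdkn1b was not called without E15.5 replicate 2 (adjusted p = 0.0601). The genes named here were picked by level or size of change, and they do not stand for the list, which was divided between directions. Over all genes tested 22.6% were higher and 24.9% lower.

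Because the genes of mitosis and S phase moved together, their promoters were read from the RefSeq set (GRCm38.p6, 250 bases before to 50 bases after the start of transcription), which held 51 of the 61 mitosis genes and 44 of the 55 S phase genes. The search was for CCAAT (or ATTGG on the other strand), the box bound by NF-Y, for TTTGAA (or TTCAAA), the core of the cell cycle homology region, and for GGCGGGAA or TTTGGCGC on either strand, forms of the E2F site. In the mitosis genes 72.5% of promoters held CCAAT and 70.6% TTTGAA, against 39.1% and 11.8% of the 10205 promoters of tested genes and 38.0% and 18.2% of all 27025 promoters of the set. In the S phase genes the shares were 63.6% and 15.9%, and 29.5% held an E2F form, against 3.92% in the mitosis genes, 5.23% in tested genes and 2.78% of all promoters. A match is a description of letters, not evidence of binding. The promoters of the mitosis genes with the largest falls, Ube2c, Ccnb2, Birc5 and Cdc20 (an activator of the anaphase-promoting complex), and of the S phase genes Rrm2 and Cdc6 are printed to show what these letters look like in context. They lie at chr2:164769679-164769978 (plus strand), chr9:70421505-70421804 (minus), chr11:117848987-117849286 (plus), chr4:118437294-118437593 (minus), chr12:24708004-24708303 (plus) and chr11:98907901-98908200 (plus), in that order. Capitals mark the matches, and each sequence runs 5′ to 3′ on the strand of the gene.
Ube2c: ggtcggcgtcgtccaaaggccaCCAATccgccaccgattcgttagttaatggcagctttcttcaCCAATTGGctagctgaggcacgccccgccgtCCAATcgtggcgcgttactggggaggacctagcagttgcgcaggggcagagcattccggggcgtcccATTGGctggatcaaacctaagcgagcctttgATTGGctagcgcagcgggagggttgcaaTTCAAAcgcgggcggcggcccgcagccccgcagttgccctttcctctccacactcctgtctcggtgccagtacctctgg
Ccnb2: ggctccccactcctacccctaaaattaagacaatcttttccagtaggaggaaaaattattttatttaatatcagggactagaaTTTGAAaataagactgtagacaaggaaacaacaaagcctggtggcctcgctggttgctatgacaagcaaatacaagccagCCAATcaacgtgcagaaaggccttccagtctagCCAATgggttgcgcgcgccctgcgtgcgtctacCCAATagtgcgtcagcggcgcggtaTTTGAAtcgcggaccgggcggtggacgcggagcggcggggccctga
Birc5: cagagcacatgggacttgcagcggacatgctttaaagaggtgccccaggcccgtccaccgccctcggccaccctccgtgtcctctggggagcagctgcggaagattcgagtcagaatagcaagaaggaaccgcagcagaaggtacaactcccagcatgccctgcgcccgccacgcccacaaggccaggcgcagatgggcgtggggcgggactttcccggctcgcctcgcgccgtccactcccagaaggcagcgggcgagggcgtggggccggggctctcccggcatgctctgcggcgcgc
Cdc20: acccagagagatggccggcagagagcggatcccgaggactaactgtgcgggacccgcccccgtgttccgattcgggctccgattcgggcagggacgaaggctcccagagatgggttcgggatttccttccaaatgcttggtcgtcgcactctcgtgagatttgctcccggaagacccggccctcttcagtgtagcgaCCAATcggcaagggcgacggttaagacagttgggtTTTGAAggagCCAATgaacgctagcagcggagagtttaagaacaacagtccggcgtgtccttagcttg
Rrm2: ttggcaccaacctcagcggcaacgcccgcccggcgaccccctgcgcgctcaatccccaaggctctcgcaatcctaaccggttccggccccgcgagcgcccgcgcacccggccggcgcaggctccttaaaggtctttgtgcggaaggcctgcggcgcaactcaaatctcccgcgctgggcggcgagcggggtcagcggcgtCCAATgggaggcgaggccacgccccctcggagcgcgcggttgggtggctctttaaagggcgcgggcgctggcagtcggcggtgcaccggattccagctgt
Cdc6: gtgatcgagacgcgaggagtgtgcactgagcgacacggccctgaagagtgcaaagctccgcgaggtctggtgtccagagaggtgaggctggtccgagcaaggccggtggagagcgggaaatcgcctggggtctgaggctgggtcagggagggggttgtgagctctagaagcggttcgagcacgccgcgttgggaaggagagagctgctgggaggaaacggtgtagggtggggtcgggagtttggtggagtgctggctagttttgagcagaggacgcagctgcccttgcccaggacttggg
The promoter of Ube2c held 7 matches, with 1 CCAAT and 1 ATTGG overlapping in a run of 8 capitals, and that of Ccnb2 held 5. Cdc20 held 3, with TTTGAA between 2 CCAAT boxes, and Rrm2 held 1 CCAAT. Birc5 and Cdc6 held 0, which says only that these letters are not in this window.

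The 10 largest falls among genes with at least 50 CPM were those of Sox11, Cxcl10, Gpx3, AB124611, Spp1, Apoc1, Vim, Fabp5, Ube2c and Ccnb2. AB124611, an immunoglobulin superfamily gene of myeloid cells, was even within the embryonic libraries (104, 97.8 and 104 CPM, then 3.16, 2.69, 7.34 and 5.61 CPM; 21.5-fold lower, adjusted p = 3.22e-05). Gpx3, which encodes a secreted glutathione peroxidase, fell 26.3-fold from 220, 148 and 137 CPM to 3.42, 1.78, 10.8 and 9.37 CPM. In both genes 3F and 3M were the highest of the P14 libraries, and without shared barcodes the log2 changes went from -4.43 to -5.37 and from -4.72 to -6.24. Sox11, a transcription factor gene of newborn neurons and some progenitors, went from 155, 103 and 34.3 CPM to between 0.444 and 1.16 CPM (117-fold lower, adjusted p = 4.97e-05). Sox11 is also on the list of neuronal markers, whose other members are given further below.

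Genes of fetal growth were lower in 14 of 22 tested and higher in 6 (median -1.68). Fewer could be tested with thinned cells (10 of 18 lower, 4 higher, median -0.94), without cells with a mitotic UMI (9 of 16 lower, 4 higher, median -0.66) and without cells with 2 or more S phase or mitosis UMIs (7 of 13 lower, 2 higher, median -0.47). Lin28b, which blocks the maturation of let-7 microRNAs, fell from 9.14, 6.82 and 10.1 CPM to 0.267, 0.291, 1.05 and 0.732 CPM (14.5-fold lower, adjusted p = 2.00e-04; log2 change -3.86, -5.01 without shared barcodes). Igf2bp3, an oncofetal RNA-binding protein gene that lies downstream of LIN28B, fell 3.26-fold from 99.3, 74.9 and 97.2 CPM to between 18.8 and 35.4 CPM. Ezh2, the histone methyltransferase gene of Polycomb repressive complex 2, had a log2 change of -1.39. Meg3, an imprinted noncoding RNA that neurons carry at high level, was the member with the largest rise (2.99, adjusted p = 0.012), and its P14 libraries ranged from 21.2 to 201 CPM; it was not called with thinned cells (1.807, adjusted p = 0.0743) or without cells with a mitotic UMI (0.081). Sox4 rose from 222, 265 and 270 CPM to between 325 and 407 CPM (1.46-fold, adjusted p = 0.0095, or 0.056 without the filter on microglial genes and 0.0941 when cells with 2 or more S phase or mitosis UMIs were left out). Meg3 is also on the list of neuronal markers, which moved in both directions and are given further below. The part of neuronal RNA in this list was not tested.

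Genes of axon tract and phagocytic microglia, a state described around growing fibre tracts of the early brain, were mostly lower at P14. Of 29 tested, 21 fell and 2 rose (median -2.49). Spp1, which encodes osteopontin, stood at 54.6, 182 and 49.0 CPM and then at 3.11, 7.94, 4.91 and 4.76 CPM (18.3-fold lower, adjusted p = 0.000377). Hmox1, the heme-degrading enzyme gene, stood at 385, 433 and 333 CPM and then between 24.2 and 40.0 CPM (12.4-fold lower, adjusted p = 1.28e-05). Igf1, a growth factor gene, stood at 44.2, 83.6 and 56.0 CPM and then between 6.80 and 12.1 CPM (6.28-fold lower). No P14 library reached the lowest embryonic one in these genes. The lectin gene Lgals3 fell 12.3-fold, and Gpnmb, a lysosomal transmembrane protein gene, fell 16.4-fold from 2.45, 5.05 and 1.03 CPM (-4.04, -6.35 without shared barcodes). Abundant members fell by less, such as Ctsb (cathepsin B, 2.95-fold, from 4152 ± 577 to 1406 ± 75.7 CPM) and the tetraspanin gene Cd63 (3.25-fold). Postn, a matrix protein gene, and Ephx1, an epoxide hydrolase gene, were the members that rose (2.94 and 1.62), both to under 7 CPM on average, and Ephx1 was not called when cells with 2 or more S phase or mitosis UMIs were left out (adjusted p = 0.067). Per cell, after thinning, a Spp1 UMI was found in 2.58%, 2.83% and 1.30% of embryonic cells and in 0.309% to 0.526% of P14 cells (exact permutation test, p = 0.0286).

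Genes of lipid handling fell more often than they rose. Of 31 tested, 18 fell and 3 rose (median -0.60), or 14 and 9 with library totals (median -0.36). Apoe, the main lipoprotein gene of the brain, stood at 6588, 10166 and 9501 CPM in the embryo and at 1371, 1540, 1715 and 1613 CPM at P14 (5.61-fold lower, log2 change -2.49, SE 0.16, adjusted p = 2.18e-05). An Apoe UMI was found in 97.42% to 99.27% of embryonic cells and in 56.66% to 59.00% of P14 cells after thinning (p = 0.0286, exact permutation test), beside 32.71% and 39.29% of the barcodes without a UMI of the 4 microglial genes. Apoe was thus found in nearly all embryonic cells. Its neighbour on the chromosome, Apoc1, fell 18.2-fold, from 93.3, 119 and 73.9 CPM to between 2.40 and 8.98 CPM (log2 change -4.18, -5.34 without shared barcodes). Fabp5, a fatty acid binding protein gene, fell 15.4-fold, from 203, 349 and 184 CPM to between 9.68 and 20.7 CPM (-3.94, -4.74 without shared barcodes). Plin2, which coats lipid droplets, fell 7.61-fold, and Lpl, the lipoprotein lipase gene, had a log2 change of -1.54. Pla2g15, a lysosomal phospholipase gene, rose (0.84).

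Heme and iron genes had 10 of 23 members lower and 4 higher (median -0.25, or -0.01 with library totals, which called 9 lower and 6 higher). Over all genes tested 24.9% were lower and 22.6% higher, so this list did not clearly move in one direction. The ferritin genes stood out by their level. Ftl1, the light chain, went from 10959, 9909 and 8538 CPM to between 1550 and 2209 CPM (5.25-fold lower, adjusted p = 1.60e-05), and Fth1, the heavy chain, from 5873, 4329 and 3477 CPM to between 1395 and 1778 CPM (2.86-fold lower). Mt1, the metal-binding metallothionein gene, fell 3.19-fold. Among those that rose, Tfrc, the transferrin receptor, went from 4.05, 6.44 and 7.29 CPM to 15.7, 15.8, 12.3 and 15.8 CPM (2.52-fold, adjusted p = 0.00129), and Trf, transferrin itself, from 304 ± 40.0 to 661 ± 61.8 CPM (2.17-fold). Globin and other red cell genes summed to 795.2, 4373 and 840.2 counts per 1000000 UMIs at E15.5 and to 392.5, 24, 1347 and 31.48 at P14, with embryonic replicate 2 and P14 replicate 3F the highest of their stages.

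Genes of border-associated macrophages, which line the meninges and vessels of the brain, were lower at P14 in 18 of 22 tested and higher in 1 (median -1.37). Folr2, a folate receptor gene, went from 18.7, 19.5 and 12.2 CPM to 0.667, 0.655, 1.60 and 1.16 CPM (16.2-fold lower, adjusted p = 4.77e-05; log2 change -4.02, -5.40 without shared barcodes). Ms4a7 went from 39.0, 38.9 and 8.56 CPM to 1.51, 1.75, 3.67 and 3.51 CPM (10.9-fold lower, adjusted p = 0.00115; log2 change -3.45, or -4.86 without shared barcodes). Mrc1, the mannose receptor gene CD206, went from 173, 222 and 171 CPM to at most 83.5 CPM (2.64-fold lower). All P14 libraries were below all embryonic ones for these 3 genes, but the embryonic libraries did not agree among themselves: replicate 3 had about the P14 level of Pf4, a platelet factor gene (77.6, 61.0 and 8.90 CPM against 6.15 to 10.1 CPM; log2 change -2.57, adjusted p = 0.00631; -3.85 without shared barcodes). Cells with an Ms4a7 UMI made up 4.27%, 3.38% and 1.32% of embryonic libraries and 0.0756%, 0.0844%, 0.458% and 0.365% of P14 libraries after thinning (exact permutation test, p = 0.0286), and 0.0243% to 0.0856% at P14 without shared barcodes. Mrc1 was found in 18.68 ± 1.77% and 11.48 ± 2.21% of cells. Ccr1, a chemokine receptor gene, was the member that rose (0.76, adjusted p = 0.0174), and it was not called without cells with 2 or more S phase or mitosis UMIs (0.474, adjusted p = 0.177) or without cells with a mitotic UMI (0.524, 0.0837). Of the defining genes, Cd163 was too low to be tested. Of the Ms4a family as a whole, 4 of 6 tested fell and 0 rose (median -1.37).

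Genes of protein synthesis were mostly lower at P14. Cytosolic ribosomal protein genes fell in 80 of 83 tested, with 0 higher (median -1.30), and together they made up 210100 to 216800 counts per 1000000 UMIs at E15.5 and 102200 to 108100 at P14. Rpl32 went from 5032, 4679 and 4854 CPM to between 1327 and 1530 CPM (3.42-fold lower, adjusted p = 1.11e-05). Rps27 (-0.61, adjusted p = 0.0677) and Rpl7l1 (0.04, 0.831; -0.06 to 0.24 when 1 library was left out) were not called. Rps27 was called lower by DESeq2 (-0.63, adjusted p = 0.0263), and by edgeR with the replicate block (0.0129), with thinned cells (0.0482), when cells with 2 or more S phase or mitosis UMIs were left out (0.0109), and without E15.5 replicate 1 (0.0295) or P14 replicate 2 (0.0414). Of 81 translation factors and nucleolar genes, 52 fell and 4 rose (median -0.49), or 33 and 9 with library totals (median -0.25). Eef1a1, the elongation factor, had a log2 change of -1.03 and Npm1, the nucleolar chaperone nucleophosmin, of -1.50, whereas Eef2k, the kinase that brakes elongation, rose (2.01, from 26.8 to 108 CPM). Constitutive proteasome subunits were lower in 21 of 34 and heat shock and chaperonin genes in 23 of 33, with 0 higher in either list. Hsp90ab1, a cytosolic HSP90, fell 2.68-fold from 2678, 2222 and 2538 CPM to between 797 and 994 CPM. Splicing genes were lower in 21 of 53 and higher in 1 (median -0.31), beside 24.9% of all genes tested called lower. With library totals 9 were lower and 6 higher (median -0.07).

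Genes of energy metabolism fell more often than they rose. Of 29 glycolysis genes, 14 fell and 6 rose (median -0.51, or -0.27 with library totals). Gapdh stood at 3068, 1574 and 1234 CPM and then between 625 and 721 CPM (2.95-fold lower, adjusted p = 0.00192). Ldha, the lactate dehydrogenase subunit that favours lactate production, stood at 740, 444 and 324 CPM and then between 122 and 142 CPM (3.81-fold lower, adjusted p = 0.000451), while Ldhb, the other subunit, rose 1.82-fold from 455, 401 and 470 CPM to between 721 and 907 CPM (adjusted p = 0.000659). Embryonic replicate 1, the library with most dividing cells, had the highest level of Gapdh and Ldha but not of Ldhb. Pgk1 fell 4.21-fold. Hk1, a hexokinase gene, rose 2.34-fold, and Slc2a5, a fructose transporter gene also on the homeostatic list, rose 2.22-fold. Respiratory chain genes fell whether encoded in the nucleus (70 of 80 lower, 1 higher, median -0.91) or in the mitochondrion (10 of 13 lower, 0 higher, median -0.99). Cox4i1, of cytochrome oxidase, fell 2.24-fold from 1456, 1114 and 1240 CPM to between 543 and 625 CPM, and mt-Co1, encoded in the mitochondrial genome, fell 2.57-fold from 4696, 6817 and 5840 CPM to between 2024 and 2374 CPM. Cox6a2 was the nuclear member that rose (1.21, to 4.92 CPM). Sterol and fatty acid synthesis genes were lower in 12 of 33 and higher in 1 (median -0.31), or in 7 and 5 with library totals (median -0.07). The shares over all genes tested were 24.9% lower and 22.6% higher.

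Genes of the cytoskeleton and of migration fell in 37 of 53 and rose in 4 (median -0.96). Tmsb4x, the actin-sequestering thymosin beta-4, was at 30947, 22144 and 23401 CPM and then between 10457 and 11583 CPM (2.31-fold lower, adjusted p = 0.000144). Stmn1, a microtubule destabiliser known from dividing cells and neurons, was at 1104, 453 and 392 CPM and then between 50.7 and 91.7 CPM (8.75-fold lower). Actb fell 1.97-fold. Rhob, a small GTPase gene of endosomes and actin, was even within each stage and rose 2.92-fold, from 280, 306 and 269 CPM to between 820 and 856 CPM (adjusted p = 2.34e-05).

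Lysosomal genes did not move in one direction, with 27 of 67 lower and 11 higher (median -0.21), or 20 lower and 18 higher with library totals (median 0.03). Cathepsins B (Ctsb, -1.56), Z (Ctsz, -1.23) and L (Ctsl, -0.91) fell, while the enzyme gene Man2b1 (0.70) and the membrane protein gene Laptm5 (0.59) rose. Ctss, cathepsin S, rose 1.51-fold (adjusted p from 0.0503 to 0.0538 without E15.5 replicate 1 or P14 replicate 2, and 0.0583 when cells with 2 or more S phase or mitosis UMIs were left out). Of 20 complement genes, which include C1qa and C1qb of the cell filter, 6 were higher (C1qa among them) and 7 lower (median 0.30), or 10 and 7 with library totals (median 0.54). Over all genes tested 22.6% were higher and 24.9% lower. C3, the central component, fell 39.0-fold from 2.30, 5.36 and 3.36 CPM to under 0.2 CPM (-5.29, -6.16 without shared barcodes), and C3ar1, the receptor for its fragment, had a log2 change of -1.30. Itgam, which encodes CD11b of complement receptor 3 (a protein of the sort), went from 253, 418 and 398 CPM to between 659 and 747 CPM (1.96-fold). C1qc was not called (0.31, adjusted p = 0.0675; 0.021 with the replicate number as a block, 0.0446 without shared barcodes and 0.00272 with library totals). Among Fc receptors 4 of 9 rose and 3 fell, or 5 and 2 with library totals. Fcgr4, an activating receptor, fell 7.08-fold from 35.9, 47.4 and 37.1 CPM to between 5.28 and 6.33 CPM (adjusted p = 7.97e-06), and Fcgr2b, the inhibitory receptor, rose 2.86-fold from 41.0, 53.5 and 47.9 CPM to between 120 and 152 CPM (adjusted p = 9.55e-05). For both genes the libraries of the stages did not overlap.

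Receptors for dying cells moved in both directions. Of 26 genes of the TAM receptors and of clearance, 8 rose and 8 fell (median 0.16), beside 22.6% and 24.9% of all genes tested. The median was -0.04 without cells with a mitotic UMI. It was -0.01 when cells with 2 or more S phase or mitosis UMIs were left out. Axl, a TAM receptor gene known to be induced in reactive microglia, fell 10.1-fold from 25.9, 35.3 and 24.7 CPM to between 1.78 and 3.85 CPM (adjusted p = 3.54e-05; log2 change -3.34, -4.18 without shared barcodes). Mertk, the TAM receptor gene of homeostatic microglia, rose 2.11-fold from 72.4, 175 and 184 CPM to between 279 and 327 CPM (adjusted p = 0.0137). Of their ligands, Gas6 fell 1.90-fold, from 290, 416 and 321 CPM to between 162 and 194 CPM, and Pros1 rose 1.52-fold, from 116, 149 and 158 CPM to between 196 and 235 CPM. Elmo1, a gene of the engulfment machinery, rose 3.18-fold. Among Siglecs, lectins and inhibitory receptors 11 of 33 rose and 13 fell (median 0.00, or 0.23 with library totals, which called 14 higher and 11 lower). Vsir, the gene of the checkpoint receptor VISTA, rose 2.75-fold from 314, 380 and 420 CPM to between 982 and 1091 CPM, and Siglech, a microglial Siglec gene, rose 1.93-fold.

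Interferon-stimulated genes were lower in 29 of 50 and higher in 6 (median -1.08), and the embryonic libraries differed widely. Cxcl10 was at 8.29, 128 and 32.3 CPM and then at 0, 2.55, 1.75 and 0.397 CPM (log2 change -5.56, adjusted p = 0.00316), and Ifitm3 was at 40.2, 120 and 41.1 CPM and then between 12.6 and 22.4 CPM (3.99-fold lower). Embryonic replicate 2 was the highest of all libraries for both. Ifit3 overlapped between the stages (8.85, 57.1 and 36.7 CPM against 4.89 to 9.45 CPM) although it was called (-2.32, adjusted p = 0.00623). The share of cells with an Ifit3 UMI was 1.66 ± 0.819% and 0.866 ± 0.190% after thinning (exact p = 0.0857), and 3.26% and 1.74% on average without thinning (exact p = 0.0286). Slfn8, of the Schlafen family (1.36), and Irf1, an interferon regulatory factor gene (0.70), were among those that rose. Red cell genes were also highest in embryonic replicate 2 (4373 counts per 1000000 UMIs), and their part was not tested.

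Of the chemokines and their receptors 9 of 27 were higher, Cx3cr1 of the cell filter among them, and 9 lower (median 0.03), or 3 of 19 and 8 when cells with 2 or more S phase or mitosis UMIs were left out (median -0.32) and 9 of 29 and 10 without E15.5 replicate 1 (median -0.14). The shares over all genes tested were 22.6% higher and 24.9% lower. Ccl3, a chemokine gene of activated myeloid cells, went from 66.7, 327 and 209 CPM to between 9.52 and 17.2 CPM (13.8-fold lower, adjusted p = 0.000429), and Ccl4 from 32.0, 205 and 102 CPM to between 6.31 and 28.3 CPM (5.82-fold lower, adjusted p = 0.0091). After thinning, 6.97%, 20.78% and 14.08% of embryonic cells and 1.65% to 2.76% of P14 cells had a UMI of Ccl3 or Ccl4 (exact permutation test, p = 0.0286). Ccl2 was not called (-1.42, adjusted p = 0.0757; 0.0133 with the replicate block and 0.034 without E15.5 replicate 3). Cxcr2, a receptor for ELR chemokines, was even within each stage and fell 10.2-fold, from 21.0, 22.7 and 24.5 CPM to between 1.82 and 2.91 CPM (adjusted p = 1.06e-05). Of 40 cytokine, growth factor and NF-kB feedback genes, 16 rose and 9 fell (median 0.20). Il1b, which encodes interleukin 1 beta, fell from 2.87, 9.96 and 3.26 CPM to under 1 CPM, and Csf1, the growth factor for microglia themselves, fell from 23.4, 80.4 and 65.4 CPM to between 8.30 and 11.2 CPM (5.86-fold). Mif, the macrophage migration inhibitory factor gene, fell 4.98-fold. Among those that rose, Pdgfa, a ligand of oligodendrocyte precursors, went from 6.10, 8.22 and 6.70 CPM to between 21.4 and 26.5 CPM (3.49-fold, adjusted p = 5.22e-05), Pdgfb 2.16-fold and Hbegf, an EGF receptor ligand gene, 3.89-fold.

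Of the innate sensors 17 of 42 were called higher and 5 lower (median 0.22), and 20 were not called. Tlr3, the endosomal receptor for double-stranded RNA, went from 17.7, 28.4 and 31.1 CPM to between 65.0 and 100 CPM (3.16-fold, adjusted p = 0.00064). Tlr7, a receptor for single-stranded RNA, rose 1.89-fold and Tlr5, the flagellin receptor, 9.19-fold to 9.49 ± 1.80 CPM. Cd14, the co-receptor for bacterial lipopolysaccharide, went from 65.2, 80.6 and 50.1 CPM to between 198 and 255 CPM (3.46-fold, adjusted p = 0.000151). Tmem173, which encodes STING, rose as well (1.45). Those that fell included Tlr1 (1.76-fold, from 23.3 to 13.2 CPM) and Casp1 (-0.87). MHC class II genes were higher in 7 of 14 and lower in 1 (median 0.47), in 11 and 1 with library totals and in 4 and 1 when cells with 2 or more S phase or mitosis UMIs were left out. Among those that rose were H2-DMb1, a gene of peptide loading (2.64-fold, from 32.4, 28.4 and 27.5 CPM to between 66.3 and 89.4 CPM) and H2-Ob (log2 change 1.37), while H2-Ab1, a classical class II chain gene, fell from 10.9 to 6.36 CPM (adjusted p = 0.0141, or 0.113 when cells with 2 or more S phase or mitosis UMIs were left out). Most MHC class I genes were not called (3 of 25 higher, 2 lower, median -0.01, or 0.24 with library totals, which called 7 higher and 2 lower). On the study's own list of pathogen and cytokine receptors 13 of 30 tested were higher, Cx3cr1 of the cell filter among them, and 7 lower (median 0.09), beside 22.6% and 24.9% of all genes tested.

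Genes for signalling between neurons and microglia were higher in 20 of 35, Cx3cr1 and C1qa of the cell filter among them, and lower in 1 (median 0.71). Plxna4, a semaphorin receptor gene, went from 8.77, 14.9 and 14.2 CPM to between 46.5 and 50.8 CPM (3.90-fold). The GABA-B receptor subunits Gabbr1 (1.07) and Gabbr2 (2.46, from 0.375 to 2.01 CPM) rose, and Gabbr2 was not called with thinned cells (adjusted p = 0.0958) or without cells with a mitotic UMI (0.114). Purinergic receptors and ectonucleotidases were split, with 6 of 17 higher and 5 lower (median 0.07), beside 22.6% and 24.9% of all genes tested. P2ry13, a receptor for ADP like P2ry12, went from 160, 269 and 311 CPM to between 599 and 787 CPM (2.72-fold, adjusted p = 0.00114), and Entpd1, the ATP-degrading enzyme CD39, had a log2 change of 0.92. P2rx4, an ATP-gated channel gene, fell 1.67-fold, from 66.5, 86.4 and 66.1 CPM to between 37.5 and 49.1 CPM (adjusted p = 0.00371). Each P14 library was thus above each embryonic one for the ADP receptors and below for this channel. Immediate early genes, which dissociation and neuronal signals can induce, were higher in 11 of 33 and lower in 11 (median -0.03, or 0.22 with library totals, which called 13 higher and 9 lower). Their median was also above 0 with thinned cells (0.14), without the filter on microglial genes (0.05) and without cells with a mitotic UMI (0.133). It was 0.163 when cells with 2 or more S phase or mitosis UMIs were left out (11 of 24 higher, 7 lower). Fos was low at both stages (2.82, 1.65 and 1.89 CPM against 0.654 to 2.00 CPM; adjusted p = 0.0906, or 0.0157 without P14 replicate 2), and Jun rose from 131, 135 and 131 CPM to between 165 and 221 CPM (1.45-fold, adjusted p = 0.00631).

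Red cell genes, given above, reached 4373 counts per 1000000 UMIs in E15.5 replicate 2 and 1347 in P14 replicate 3F. Each other list of markers of other cell types summed to at most 462.1, and some of these markers changed with stage. Markers of neurons fell in 10 of 18 tested and rose in 4, and summed to 383.8, 297.1 and 127.8 counts per 1000000 UMIs at E15.5 and to 203.0, 306.1, 75.23 and 83.35 at P14. Among those that fell were Neurod6 (23.9 to 0.386 CPM) and Tubb3 (48.0 to 1.48 CPM), and among those that rose was Nrgn, neurogranin (0.206, 0.159 and 0.103 CPM against 65.2, 29.0, 11.9 and 20.4 CPM). Astrocyte markers rose in 8 of 10 and 0 fell, and summed to 9.23 to 14.6 and then 34.8 to 118.2 counts per 1000000 UMIs. Oligodendrocyte markers rose in 7 of 8 and 0 fell, with sums of 56.22 to 68.77 and 108.8 to 149.2. Markers of neural progenitors fell in 7 of 12 and rose in 3, and their sums overlapped (201.4 to 324.3 and 272.5 to 311.9). Monocyte markers summed to 26.86 to 51.04 and 21.96 to 27.93, and 4 of 14 were at 0 in all P14 libraries. Neutrophil markers summed to 63.26 to 102.7 and 118.1 to 136.1, and 10 of 14 were at 0 at P14. One neutrophil marker, Csf3r, is also on the homeostatic microglia list, and its part in this sum was not tested. Vascular markers summed to 31.79 to 44.80 and 38.06 to 43.59, and lymphocyte markers to 359.4 to 420.5 and 432.6 to 462.1. Of the 17 lymphocyte markers, 8 were at 0 at P14. Of the markers that could be tested, 4 of 8 monocyte, 4 of 6 vascular, 2 of 3 lymphocyte, 1 of 2 neutrophil and 1 of 9 red cell genes fell, and 1, 1, 1, 1 and 0 rose. The part of these cells in genes that neurons or glia share with microglia was not tested.

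The same change of stage was measured in the MIA libraries of E15.5 (3) and P14 (2), which had 20369 cells. They are other libraries than the 7 but share cell barcodes with them: E15.5 MIA replicate 3 shared 222 cells with P14 saline replicate 3F, 211 with 3M and 152 with E15.5 saline replicate 3, P14 MIA replicate 1 shared 114 with P14 saline replicate 1, and 17.19% of the cells of E15.5 MIA replicate 3 had a shared barcode. In a model of all 12 libraries, 4605 of 14527 genes were called between P14 and E15.5 after MIA (31.7%), 2257 higher and 2348 lower, and 4348 without shared barcodes. With the replicate number as a block 6508 were called, 3219 higher and 3289 lower, and the overlap below is without the block. Of the 6421 genes called in saline, 6391 (99.53%) had the same sign after MIA, and 4165 were called there in the same direction (64.9% of the saline calls and 94.4% of the 4410 MIA calls tested in both), with 0 in the opposite direction. Among genes with more than 2-fold change in saline, 2378 of 2962 (80.3%) were called. Thrsp went from 0.564 to 60.6 CPM on average in the MIA libraries, Selplg from 354 to 2691 CPM, Apoe from 8875 to 1607 CPM and Mki67 from 121 to 6.35 CPM. The interaction of stage and treatment was called for 0 of 14527 genes by edgeR, and 99 had an unadjusted p under 0.05 (280 with the replicate block, again with 0 called). DESeq2 called 0, with 102 at an unadjusted p under 0.05. Without any interaction a share of 0.05 of the genes is expected there. These counts are well below that share, so the p-values of the interaction may be too conservative. No gene's change of stage was thus shown to differ between treatments at this number of libraries, which does not show that none differed.

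**Figure D4:**
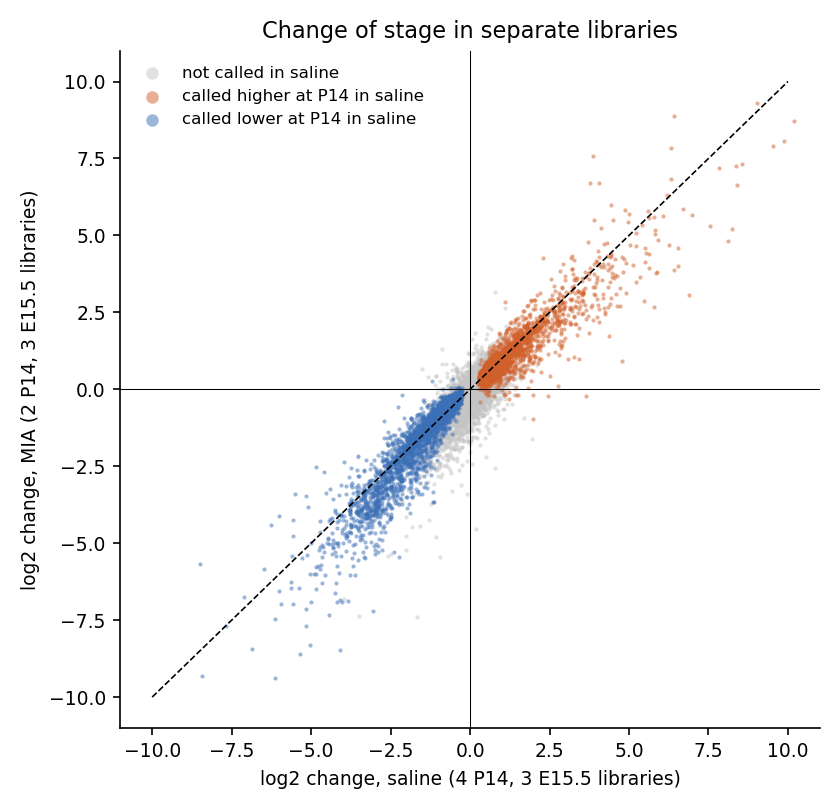
Log2 change of P14 minus E15.5 in the saline libraries (x axis, 4 P14 and 3 E15.5 libraries) and in the MIA libraries (y axis, 2 P14 and 3 E15.5 libraries), with 1 point for each of 13517 genes, coloured by the call in saline, and a dashed line of equality. Of the 6421 called genes, 99.53% lie in the lower left or upper right quadrant.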

How the data were processed

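Microglia were profiled by droplet single-cell RNA-seq, and the deposited matrices hold counts of UMIs per gene and barcode that the authors made with Cell Ranger from reads aligned to mm10, with no normalization. The submitters' processing notes name version 3.1.0 of Cell Ranger and the study's methods a later one, and which of them made these files is not known here. Barcodes with at least 500 genes, at most 20% mitochondrial UMIs and at least 3 UMIs of Csf1r, C1qa, C1qb and Cx3cr1 were kept, and their UMIs were summed per library. Doublets were kept, and removing the cells with the highest Scrublet scores (scanpy 1.11.5; 0.8% per 1000 cells) was an alternative. Every adjusted p of a gene, other than those named as DESeq2's, comes from edgeR 4.0.16 (quasi-likelihood test, TMM, filterByExpr, Benjamini-Hochberg over all genes tested), fitted without a block, and DESeq2 1.42.0 was an alternative. Shares of cells were compared with exact permutation tests over libraries, two-sided, after thinning to 2000 UMIs, with shallower cells left out. The MIA comparison and the interaction came from 1 model of 12 libraries. Summed levels of marker lists are per UMI of the library total, without TMM. Other alternatives were library totals or DESeq2 size factors, no filter on low counts, the replicate number as a block, leaving out each library, 3F and 3M summed, other filters on cells, and thinning. Those that left out cells by UMIs of S phase or mitosis genes started from the thinned cells. The fit was tested on simulated data.

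The members and the 48 gene lists were chosen with earlier results of these data known. Named are the 10 largest rises and falls among called genes with a mean of at least 50 CPM, and from each list the members of highest level, of largest change and those against the rest. Embryonic and P14 libraries with the same replicate number deviated together from their group means over 13517 genes (correlations 0.206, 0.285, 0.194 and 0.336). Pairs with unlike numbers had correlations from -0.3159 to 0.1095. Deviations from a group mean sum to 0, so these correlations are not independent. The labels do not say what libraries with the same number have in common, and embryonic replicate 3, 3F and 3M also share barcodes. All replicate pairs differed by more than sampling noise. Each share or sum covers counting error only at the depth of its library. Clec7a was not analysed here. Some genes are not reported here.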

Additional observations from a re-analysis of the deposited data

Results flagged for a closer look

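In each of 186 groups of 4 P14 libraries (the genes and shares named in the text, without the genes of the cell filter), the gap of the outermost library to its neighbour was set against the range of the group, and 7 groups passed Dixon's 95% critical value where chance alone gives about 9.3. P14 replicate 1 was the highest for Cox4i1 (ratio 0.841), Hbegf (ratio 0.868) and the neuronal gene Neurod6 (ratio 0.908). P14 replicate 2 was the highest for Meg3 (201 CPM, ratio 0.842) and the lowest for the mitochondrially encoded mt-Co3 (ratio 0.841). Replicate 3F was the highest for Cdkn2b (1.64 CPM, ratio 0.877) and the lowest for Tfrc (12.3 CPM, ratio 0.959).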

How the results depend on the processing

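The count of called genes stayed between 4766 and 7273 over the alternatives other than the one that left out cells with 2 or more UMIs of S phase or mitosis genes, in which 3731 were called (1750 higher, 1981 lower). That alternative used thinned cells and kept 17.11% to 43.87% of them at E15.5 and 47.27% to 52.71% at P14. It thus left out many cells that were not counted as dividing. Library totals gave 4858 higher. Leaving out 1 library at a time gave 5171 to 7078 calls. With the replicate number as a block, 7162 genes were called, and 6320 of the calls without it stayed in the same direction. Among genes named in the text the replicate block added C1qc, Ccl2 and Rps27, took away Cenpl and changed no other call. DESeq2 added Tyrobp, Irf8 and Rps27 among the named genes, and called 1 homeostatic gene and 5 transcription factors lower. The difference in the share of dividing cells ranged from -8.523 to -21.34 percentage points when 1 library was left out, and was -17.45 with 3F and 3M summed (p = 0.1, the smallest that 3 against 3 libraries allow in an exact permutation test). The difference in Ifit3-positive cells was -0.794 percentage points, and -1.515 without thinning. The direction turned for Spi1 (0.052 with library totals) and Rpl7l1 (-0.018 in cells with no Xist or Tsix UMI, and -0.063 to 0.237 when 1 library was left out). It also turned for 4 named genes of the cell cycle without cells with S phase or mitosis UMIs, without cells with a mitotic UMI, and without those and the shared barcodes, in that order: Hist1h1e (0.579, 0.516 and 0.521), Hist1h4d (0.801, 0.774 and 0.791), Cenpl (1.157, 1.206 and 1.25) and Cenpq (0.629, 0.646 and 0.635). The cause was not tested, and cells were left out there by UMIs of the cell cycle itself. Over all genes, 7 calls turned to a call in the opposite direction when cells with 2 or more S phase or mitosis UMIs were left out. Calls of named genes were also lost in cells with no Xist or Tsix UMI, with adjusted p of 0.0546 for Cdkn1b, 0.0909 for Tgfb2, 0.0525 for Hist2h3c1, 0.0563 for H2-Ab1 and 0.0587 for Mitf. Hist2h3c1 was not called in cells with such a UMI (0.0683), Mitf with thinned cells (0.106) or library totals (0.13), and Meg3 when cells with 2 or more UMIs of S phase or mitosis genes were left out (0.054). Embryonic cells held more UMIs than P14 cells, and genes at a few CPM rest on few UMIs in the smaller libraries.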

Other observations

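In an alternative chosen after the data were seen, cells were thinned to 2000 UMIs and all with a UMI of the 8 mitotic genes were left out. It called 4792 of 11287 genes tested, beside 5185 of 11704 with thinning alone. Of the genes called lower at P14 in the main fit, 4 were called higher. These were the histone genes Hist1h1e (log2 change -0.77, and 0.516 without those cells) and Hist1h4d (-0.77 and 0.774) and the centromere genes Cenpl (-0.854 and 1.206) and Cenpq (-0.951 and 0.646). Of the replication-dependent histone genes 27 could still be tested, 3 higher and 9 lower with a median of -0.30. The median was -2.59 over the 58 tested with all cells at full depth. Cells were left out by UMIs of the cell cycle, so values of such genes without them depend on that choice. With all cells, Hist1h1e, Cenpl and Cenpq lost their call when any of several single libraries was left out (adjusted p of 0.0526 to 0.0816).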
